A study of Andrographis paniculata with 12 samples.

Results

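Enzymes grouped here as anti-herbivore were followed through 4 assembled genes in the leaf RNA of Andrographis paniculata, a herb grown for its bitter diterpene lactones. Their action on insects was not measured. The genes were chosen by their identifiers, after values of this series had shown them higher in treated leaves, and they are 4 of the 32064 assembled genes of the deposited table. They are TR32416|c5_g3 (best Swiss-Prot hit threonine dehydratase of Arabidopsis), TR50768|c4_g1 (leucine aminopeptidase of potato), TR81983|c2_g2 (polyphenol oxidase F of tomato) and TR65833|c1_g2 (arginine decarboxylase of pea). A name therefore states similarity to a known enzyme and not identity.

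The leaves had been treated with methyl jasmonate (MeJA), a volatile form of the wound hormone jasmonic acid, for 0, 12, 24 or 48 h. The labels give 3 biological replicates per time, 12 samples in all. The groups are T0, T12, T24 and T48, all of them leaf, and untreated leaves of the later times were not analysed here. The labels give no plant age, no cultivar, no dose of MeJA and no number of plants per sample. The table holds 1 mean level per assembled gene and time, formed by the authors over the replicates, so no value below has an SD, a replicate number or a p-value. The depth behind each level is unknown.

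Jasmonates accumulate in leaves that are wounded or eaten, and they switch on enzymes that lower the food value of the leaf. Threonine dehydratase, also called threonine deaminase, removes ammonia from threonine and opens isoleucine synthesis; in tomato a jasmonate-inducible form also breaks down threonine in the gut of caterpillars. Leucine aminopeptidase cuts single residues from the amino end of peptides, and in tomato its acidic form is induced by wounds and jasmonate. Polyphenol oxidase turns ortho-diphenols into quinones that bind to dietary protein once the leaf cell is broken. Arginine decarboxylase converts arginine to agmatine, the first step of the plant route to putrescine and the other polyamines, and in Arabidopsis one of its copies is known to respond to jasmonate.

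All 4 genes were higher at each later time than at 0 h, and their courses after 12 h differed. The leucine aminopeptidase gene went on upward to 48 h, the polyphenol oxidase gene was highest at 12 h, the threonine dehydratase gene was high throughout with its lowest treated level at 24 h, and the arginine decarboxylase gene was nearly level from 12 to 48 h as an assembled gene on its own. Since the genes were chosen for being higher after MeJA, these levels are a description and no test was made of them. In bulk leaf RNA a change in the number of cells that express a gene and a change in RNA per cell cannot be told apart.

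The threonine dehydratase gene (TR32416|c5_g3) was at a level of 33.1 before treatment and then at 2031 (12 h), 1434 (24 h) and 2456 (48 h). The treated levels were 61.4, 43.4 and 74.3 times the level at 0 h, and the 3 treated levels lay within 1.71-fold of each other. On the log2(level + 1) scale, which is used for every difference below and understates those of genes at low levels, its differences from 0 h were 5.90, 5.40 and 6.17. Its predicted protein carries the Pfam domain of pyridoxal phosphate-dependent enzymes and 2 copies of the C-terminal regulatory domain of threonine dehydratase, the part through which isoleucine inhibits the enzyme. The gene ontology terms of its hit place it in the chloroplast and in isoleucine synthesis.

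The leucine aminopeptidase gene (TR50768|c4_g1) was nearly silent at 0 h, at 1.68, and was at 715 at 12 h, 1145 at 24 h and 1967 at 48 h. These are 425, 681 and 1170 times the level at 0 h, with differences of 8.06, 8.74 and 9.52. It was the only one of the 4 genes whose level was higher at each time than at the one before, and its level at 48 h was 2.75 times that at 12 h. Its transcript matched the chloroplastic potato enzyme best, whereas its predicted protein matched leucine aminopeptidase 1 of Arabidopsis. The protein carries both the N-terminal and the catalytic domain of the M17 family of aminopeptidases.

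The polyphenol oxidase gene (TR81983|c2_g2) was also low at 0 h, at 1.82, and was at 737 at 12 h, 295 at 24 h and 357 at 48 h. The treated levels were 406, 162 and 196 times the level at 0 h, with differences of 8.03, 6.71 and 6.99. Its level at 12 h was 2.5 times that at 24 h, and the levels at 24 and 48 h lay within 1.21-fold of each other. The protein carries the central tyrosinase domain, which holds the copper centre, and the middle domain of plant polyphenol oxidases. The terms of its hit place it in the thylakoid lumen.

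The arginine decarboxylase gene (TR65833|c1_g2) was the only one of the 4 with a level above 50 before treatment. It was at 91.3 in the leaves of 0 h and then at 494 (12 h), 539.8 (24 h) and 537 (48 h). The treated levels were 5.41, 5.91 and 5.88 times that at 0 h, with differences of 2.42, 2.55 and 2.54, and they lay within 1.09-fold of each other. Summed with its neighbour of the same name on the component, TR65833|c1_g1, the difference from 0 h at 48 h was 1.95, and those from 12 h changed sign, to -0.22 at 24 h and -0.43 at 48 h. Its protein carries the pyridoxal-binding domain and the C-terminal sheet domain of the decarboxylase. No chloroplast term was attached to its hit, unlike those of the other 3 genes.

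**Figure D1:**
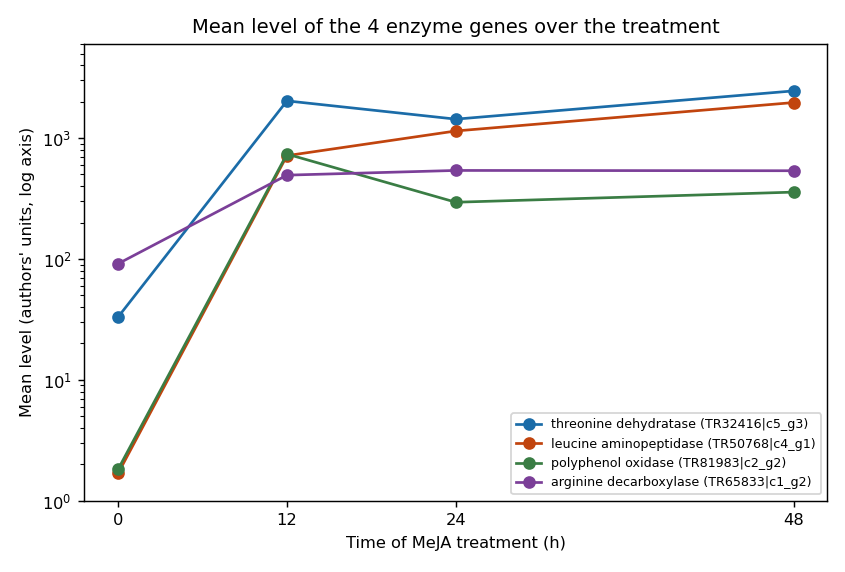
Mean level of each of the 4 enzyme genes (authors' units, log axis) against hours of MeJA treatment; each point is the authors' mean and carries no error. All 4 genes are lowest at 0 h, the leucine aminopeptidase and polyphenol oxidase points nearly coincide at 0 and 12 h, and only polyphenol oxidase is highest at 12 h.

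The rule of size that stands in for a test calls a difference of 1 or more in log2(level + 1), that is 2-fold, higher or lower. It was applied to the 29399 genes that reached a level of 1 at some time. All 4 genes passed that filter, and each was above 1 at all 4 times. By this rule 15.0% of the tested genes were higher at 12 h, 13.4% at 24 h and 12.2% at 48 h than at 0 h, and 17.7%, 16.9% and 19.6% were lower. Here 4 of 4 were higher at each time, a count that the choice of the genes fixes. Ordered by difference from 0 h, the leucine aminopeptidase gene stood at place 20 of the 29399 at 12 h, 5 at 24 h and 3 at 48 h. Polyphenol oxidase stood at places 21, 32 and 25, threonine dehydratase at 82, 100 and 48, and arginine decarboxylase at 1104, 829 and 778. The median difference of all tested genes was 0.06 at 12 h, 0.01 at 24 h and -0.09 at 48 h.

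Between treated times the 4 genes moved less and in different directions. From 12 to 24 h, polyphenol oxidase was lower by 2-fold or more (difference -1.32), as were 11.1% of the tested genes, while 10.6% were higher. The other 3 differences were 0.68 for leucine aminopeptidase, 0.13 for arginine decarboxylase and -0.50 for threonine dehydratase. From 24 to 48 h none of the 4 passed 2-fold, where 2.36% of the tested genes were higher and 4.50% lower. The largest of these differences were 0.78 for both leucine aminopeptidase and threonine dehydratase, and that of arginine decarboxylase was -0.01. From 12 to 48 h leucine aminopeptidase was higher (1.46), where 9.93% of all tested genes were, and polyphenol oxidase lower (-1.04), where 15.5% were. The last call rests on the scale of the columns, since with median-of-ratios scaling the difference was -0.85.

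**Figure D2:**
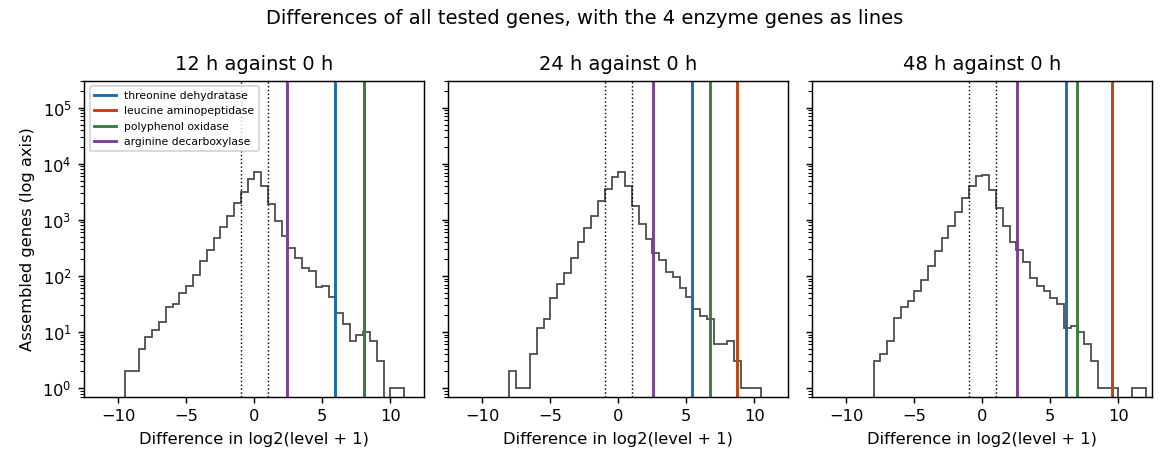
Number of assembled genes (log axis) by difference in log2(level + 1) from 0 h, for the 29399 tested genes at 12, 24 and 48 h; coloured lines mark the 4 enzyme genes and dotted lines a 2-fold difference. Arginine decarboxylase lies nearest to the bulk of the genes, and leucine aminopeptidase lies at the far right at 24 and 48 h, at 8.74 and 9.52; at 12 h its line coincides with that of polyphenol oxidase.

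If treatment began at 1 clock time, the leaves of 0, 24 and 48 h share an hour of the day and those of 12 h do not; the labels give no clock time. The 4 genes were higher than at 0 h at 24 and 48 h as well as at 12 h. From 12 to 48 h the difference was 1.46 for leucine aminopeptidase, 0.27 for threonine dehydratase, 0.12 for arginine decarboxylase and -1.04 for polyphenol oxidase. That of arginine decarboxylase was -0.43 with its pieces summed. The part of the hour of the day in these levels was not tested. Leaf markers also moved. The 39 genes named Rubisco small chain, Rubisco activase, phosphoribulokinase or chlorophyll a-b binding protein summed to 64892 at 0 h and to 3861, 18852 and 23610 at 12, 24 and 48 h. Of the 37 that were tested, 35, 29 and 28 were lower. Of all tested genes 17.7%, 16.9% and 19.6% were lower and 15.0%, 13.4% and 12.2% higher. No gene of the table was named for the flower identity factors AGAMOUS, APETALA 3, PISTILLATA or SEPALLATA. The 8 root markers summed to between 82.3 and 102 over the 4 times, and the 24 vascular ones to between 158 and 239.97. Of the 23 vascular markers tested, 5, 0 and 0 were higher and 2, 2 and 2 lower at 12, 24 and 48 h. The 19 guard cell markers summed to 562 at 0 h and to between 118 and 132 later. Of the 18 tested, 12, 12 and 13 were lower and 0, 0 and 1 higher. The part of these shifts in the levels of the 4 enzyme genes was not tested.

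Whether the response belonged to the enzyme name or to single genes was followed in all assembled genes of the same name. The answer differed by enzyme: all polyphenol oxidase genes and most arginine decarboxylase genes were higher at 12 h. Among the tested genes named threonine dehydratase, it was the listed gene alone. The search by name left out TR32416|c5_g1, a nameless piece of the same component with the regulatory domain of that enzyme. Its level also rose by 12 h, to 1544 from 40.9 before treatment, so a response of the listed gene alone holds by name only. The assembly may have merged copies of a gene or split 1 gene into several, and reads of near-identical copies may be shared between them.

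Of 5 genes named threonine dehydratase, 4 were tested. On the log2(level + 1) scale only TR32416|c5_g3 was higher by 2-fold at 12 and at 24 h, as were 15.0% and 13.4% of all tested genes. As plain ratios to 0 h, TR40551|c0_g1 was at 2.72 at 12 h, and TR32416|c5_g2 at 6.66 at 12 h and 7.86 at 24 h. Their levels at 0 h were 1.055 and 0.0597. That they were not counted rests on the 1 added to each level. TR26142|c0_g1, which carries the same catalytic and regulatory domains, was at 10.1, 16.3, 16.1 and 17.1 over the 4 times. Its differences from 0 h, between 0.62 and 0.71, fell short of 2-fold at all 3 times. The other 3 never exceeded a level of 3: TR40551|c0_g1 was at most at 2.87, TR32416|c5_g2 at 1.92 and TR26066|c0_g1, which missed the filter, at 0.922. At 48 h TR32416|c5_g2 was also counted as higher (1.46), from 0.0597 at 0 h.

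Of 3 genes named leucine aminopeptidase, 2 were higher at each later time. Without the listed gene it was 1 of 2, where 15.0%, 13.4% and 12.2% of all tested genes were higher. TR82514|c0_g1, a hit to rice leucine aminopeptidase 2 without a predicted protein, was listed at 0 at 0 h and was at 9.58, 11.2 and 23.5 at 12, 24 and 48 h. Like the listed gene it was higher at each successive time. TR44316|c0_g1, the hit to leucine aminopeptidase 1 of Arabidopsis, was at 19.7, 33.5, 30.8 and 33.95, with differences from 0 h between 0.62 and 0.76.

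All 4 genes named polyphenol oxidase were higher at 12, 24 and 48 h than at 0 h, and all 4 were under a level of 2 before treatment. Without the listed gene it was 3 of 3, beside 15.0%, 13.4% and 12.2% of all tested genes. TR44512|c0_g1, a hit to polyphenol oxidase I of sweet potato, had a course like that of the listed gene, at 0.0787, 45.5, 9.29 and 23.9. TR65928|c1_g1, whose predicted protein matched tomato polyphenol oxidase F, was at 0.193, 6.09, 6.09 and 4.56. TR23745|c0_g2 was instead highest at 48 h, at 0.139, 3.14, 6.46 and 8.57. The median difference of the 4 genes was 4.0 at 12 h, 2.98 at 24 h and 3.80 at 48 h. Both TR44512|c0_g1 and TR65928|c1_g1 carry a further plant polyphenol oxidase domain, of unknown function, that was not annotated in the listed gene.

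Of 6 genes named arginine decarboxylase, 4 were higher at each later time, but those of 48 h were not all those of 12 and 24 h. Without the listed gene it was 3 of 5 at each time, and 15.0%, 13.4% and 12.2% of all tested genes were higher. The neighbour of the listed gene on its component, TR65833|c1_g1, was at 89.2, 449, 270.0 and 163, and its difference at 48 h, 0.86, was under 2-fold. TR17316|c1_g1, a hit to the enzyme of Indian mustard, stood out at 24 h, at 18.5, 76.8, 403 and 237. Its neighbour TR17316|c1_g2 was at 12.4, 51.2, 98.1 and 10.6, back under its level of 0 h by the last time. TR15378|c0_g2 and TR26773|c0_g1 were under 1 until 24 h and at 2.04 and 1.98 at 48 h. No tested gene was named ornithine decarboxylase, the enzyme of the other route to putrescine.

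**Figure D3:**
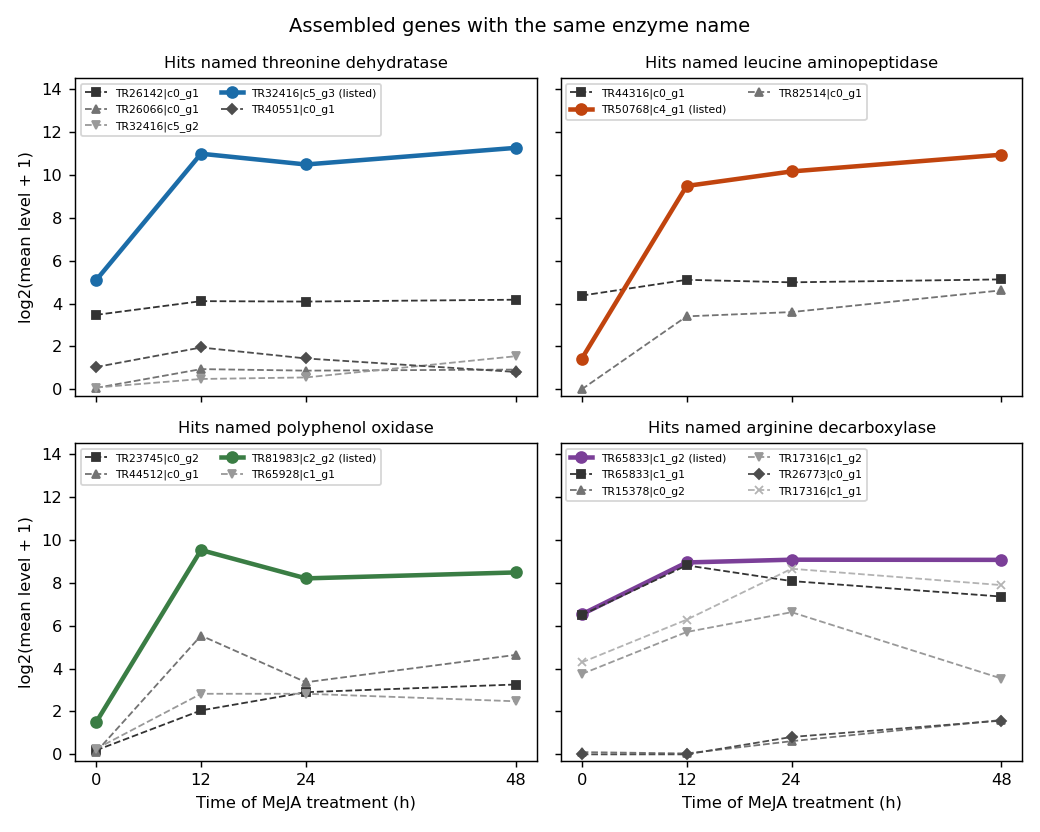
log2(mean level + 1) against hours of MeJA treatment for every assembled gene named threonine dehydratase (5 genes), leucine aminopeptidase (3), polyphenol oxidase (4) or arginine decarboxylase (6); the thick coloured line is the listed gene. Only the listed threonine dehydratase leaves the low range of its namesakes, while the polyphenol oxidases are all higher after treatment.

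In 3 pairs of pieces that share a component and differ in their domains, the levels parted over time. The pairs were chosen after their values were seen. TR32416|c5_g1 has no Swiss-Prot hit, but its predicted protein carries the regulatory domain of threonine dehydratase without the catalytic one, and it lies on the component of the listed gene. It was at 40.9 at 0 h and 1544 at 12 h, close to the listed gene, and then at 188 and 117 at 24 and 48 h, when the listed gene was at 1434 and 2456. Its ratio to the listed gene was 1.24, 0.76, 0.131 and 0.0478 at the 4 times. The size of such a ratio depends on the lengths of both pieces, and its change over time does not.

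The arginine decarboxylase components had the same feature. TR65833|c1_g1 carries only the C-terminal sheet domain, and its ratio to the listed gene was 0.977, 0.91, 0.50 and 0.304 at 0, 12, 24 and 48 h. TR17316|c1_g2, also with that domain alone, stood to the fuller TR17316|c1_g1 at 0.67, 0.667, 0.244 and 0.0448. For comparison, the table holds 137 pairs of pieces of 1 component in which the domains of 1 piece are a part of those of the other, both with a level of at least 10 at some time. Over these pairs, which are not independent, the log2 ratio of the lesser to the fuller piece changed from 0 h by a median of -0.09 at 12 h, -0.48 at 24 h and -0.52 at 48 h, with quartiles of -1.60 and 0.51 at 48 h, when 83 of the 137 changes were below 0. The 3 pairs shown changed by -4.67, -1.68 and -3.82 at 48 h, all below the lower quartile, and the first and last lay below percentile 5 (-3.59). At 24 h they changed by -3.23, -0.96 and -1.48, against a lower quartile of -1.27 and a percentile 5 of -3.26, so that the TR65833|c1 pair lay inside the quartiles and none lay below percentile 5. At 12 h the changes were -0.69, -0.10 and -0.03, and only the first was below the lower quartile of -0.57. Whether the pieces are isoforms, copies or assembly fragments was not tested.

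**Figure D4:**
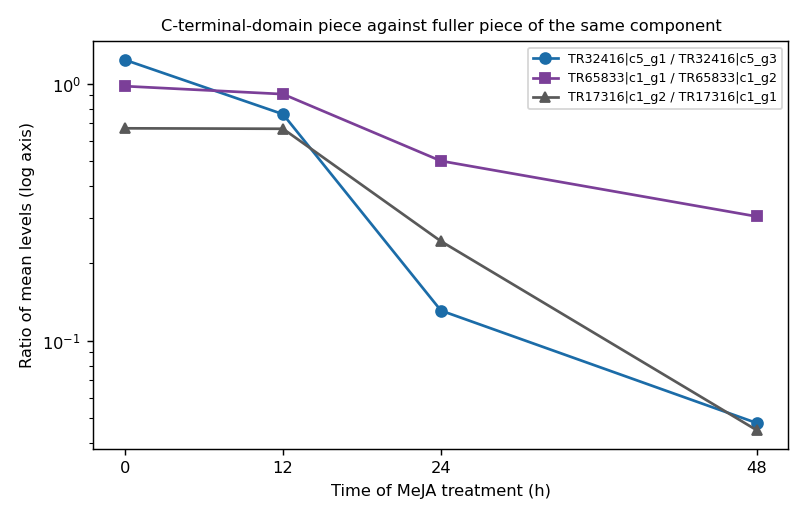
Ratio of the mean level of a piece with the C-terminal domain alone to that of the fuller piece of the same component (log axis) against hours of MeJA treatment, for threonine dehydratase (TR32416|c5) and for the arginine decarboxylase components TR65833|c1 and TR17316|c1. All 3 ratios are lower at 24 and 48 h than at 0 h, down to 0.0478, 0.304 and 0.0448.

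The genes around each enzyme were taken from 7 lists defined by enzyme name, of which 6 had members. No list moved as a whole in the way of the 4 enzymes, and their medians stayed between -0.56 and 0.80 at all 3 times. Without the 4 enzyme genes, the aminopeptidases had the highest median at each time, and the phenol-oxidising enzymes the lowest at 24 and 48 h.

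Isoleucine, valine and leucine are made from the product of threonine dehydratase or from pyruvate by shared enzymes. Of the 28 other tested genes of this synthesis, 6 were higher and 3 lower at 12 h, 6 and 4 at 24 h, and 3 and 5 at 48 h. Their medians were 0.29, 0.25 and 0.07. Of all tested genes 15.0%, 13.4% and 12.2% were higher and 17.7%, 16.9% and 19.6% lower. The steps directly after threonine dehydratase were not higher by 2-fold at any time. Acetolactate synthase, which joins the 2-oxo acids, had 4 tested genes, of which none was higher and 2 were lower at each time, not always the same ones. TR38609|c0_g1, a hit to its isoform 1 of tobacco, was at 98.3, 30.1, 71.1 and 68.2, lower at 12 h only. TR38609|c0_g2, a hit to isoform 2, was lower at all 3 times, at 105, 36.1, 31.0 and 20.8, and a gene of the small subunit (TR25731|c0_g1) at 24 and 48 h, at 3.69, 3.35, 0.483 and 0.268. The single gene of ketol-acid reductoisomerase (TR26790|c0_g2), the next step, was at 310.3, 175, 139 and 114. The single dihydroxy-acid dehydratase gene (TR61615|c0_g1) was at 9.10, 15.6, 4.07 and 3.70.

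The last step had some genes higher. Of 11 tested branched-chain aminotransferase genes, 4, 4 and 2 were higher at 12, 24 and 48 h and none was lower. TR76488|c0_g1, a hit to isoform 2, was named after its values were seen: it was at 0.412 before treatment and at 44.3, 48.6 and 44.4 afterwards. The gene of 3-isopropylmalate dehydrogenase TR84159|c0_g1, in the branch to leucine, was at 5.91, 0.94, 39.2 and 4.24, lower at 12 h and higher at 24 h.

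Upstream of threonine dehydratase, no gene of threonine synthesis was higher by 2-fold at any time. Of 6 aspartokinase genes, 1 was lower at 24 and at 48 h, TR82324|c0_g4, at 8.87, 9.79, 2.73 and 2.43 over the 4 times. The threonine synthase gene (TR46303|c0_g2) was at 18.8, 19.5, 10.5 and 10.6, within 2-fold of 0 h. Cystathionine gamma-synthase (TR64579|c0_g1), which draws the shared precursor toward methionine, was at 247, 213, 196 and 173. In this list of 20 genes, 3, 4 and 4 were higher and 2, 3 and 2 lower, against 15.0%, 13.4% and 12.2% of all tested genes higher and 17.7%, 16.9% and 19.6% lower. Those higher at 12 h were all hits to methionine gamma-lyase, an enzyme that splits methionine and yields the same 2-oxobutyrate as threonine dehydratase. Of its 7 tested genes, 3 were higher at each time and 1, 2 and 1 lower, with medians of -0.56, -0.51 and 0.71. TR53268|c0_g2 was at 2.10 at 0 h and at 86.9, 129 and 174 later, and TR68195|c1_g2 was at 0.371 and at 26.3, 50.4 and 80.6. Both were higher at each successive time. TR68195|c1_g1, of the same component as the latter, was at 22.5, 6.70, 3.07 and 10.9. The remaining gene among the 4 higher at 24 and 48 h was a hit to threonine aldolase (TR24702|c0_g1). It was at 8.34, 2.15, 20.0 and 28.2, and so was lower at 12 h.

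Among the 19 aminopeptidases other than the listed gene, 8 were higher and none lower at 12 h, 6 and none at 24 h, and 6 and 1 at 48 h. Their medians were 0.74, 0.40 and 0.52. Among all tested genes 15.0%, 13.4% and 12.2% were higher and 17.7%, 16.9% and 19.6% lower. Most of the higher aminopeptidases were of other types than leucine aminopeptidase. Methionine aminopeptidases, which remove the first residue of new proteins, made up 4 of the 8 at 12 h. An aspartyl aminopeptidase (TR19631|c0_g1, named after its values were seen) was at 4.78, 305, 94.9 and 59.6. TR26692|c1_g2, a hit to puromycin-sensitive aminopeptidase, was the one lower at 48 h, at 9.48, 18.0, 5.17 and 0.634. TR82266|c0_g1, methionine aminopeptidase 1A, had differences between -0.15 and -0.08.

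The copper oxidases listed with polyphenol oxidase moved both ways. Of 21 tested genes other than the listed one, 4 were higher and 8 lower at 12 h, 5 and 9 at 24 h, and 3 and 9 at 48 h. The 3 other polyphenol oxidases were among those higher at every time. Shares over all tested genes were 15.0%, 13.4% and 12.2% higher and 17.7%, 16.9% and 19.6% lower. The 12 genes named L-ascorbate oxidase or L-ascorbate oxidase homolog had medians of -1.32, -1.59 and -1.44, and 7, 8 and 8 of them were lower. Of the 12, 1 (TR86942|c0_g2, 0.155 at 0 h and 1.35 at 12 h) was higher at 12 h and none later. Most of the 12 were named homolog, a name that does not state that the protein oxidises ascorbate. The homolog TR79642|c0_g2 was at 31.9, 10.7, 5.54 and 1.33, and the homolog TR78903|c0_g2 at 17.2, 3.82, 1.70 and 1.70. TR47280|c1_g1, named L-ascorbate oxidase, was at 11.4, 3.61, 0.772 and 0.914. The 6 laccases, linked to lignin formation, had medians of 0.27, 0.36 and 0.14, with 0, 2 and 0 higher and 1 lower at each time.

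Beyond arginine decarboxylase the polyamine genes moved both ways. Of 40 other tested genes of polyamine synthesis and oxidation, 12 were higher and 4 lower at 12 h, 10 and 3 at 24 h, and 8 and 5 at 48 h. For all tested genes the shares were 15.0%, 13.4% and 12.2% higher and 17.7%, 16.9% and 19.6% lower. Agmatine deiminase, the step after arginine decarboxylase, had 2 genes: TR52428|c0_g3 was at 61.4 before treatment and at 6.04, 17.0 and 25.9 afterwards, and so was lower at each time, and TR52753|c1_g3 was at 7.82, 13.8, 9.76 and 9.09, within 2-fold of 0 h throughout. Both spermidine synthase genes were within 2-fold of 0 h at all times. Polyamine oxidase 3 (TR63249|c5_g1), which returns spermine and spermidine toward putrescine, was at 21.9, 988, 378 and 145, highest at 12 h. S-adenosylmethionine decarboxylase, which supplies the aminopropyl groups, had neighbours on 1 component that were both lower at 12 h and differed later: TR80374|c1_g1 was at 423, 122, 909.97 and 566, and TR80374|c1_g2 at 48.4, 12.0 and then listed at 0 at 24 and 48 h. Of 8 copper or primary amine oxidases, which break down diamines, 4 were higher at 12 h and none at 24 or 48 h.

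The synthesis and breakdown of arginine had 17 tested genes, of which 5 were higher at each time and 0, 1 and 1 lower. Those lower were a urease gene at 24 h and a urease accessory gene (TR51190|c1_g2) at 48 h. In all tested genes 15.0%, 13.4% and 12.2% were higher and 17.7%, 16.9% and 19.6% lower. Of the 5 arginine genes higher at 12 h, 4 were hits to acetylornithine deacetylase, which releases ornithine on the way to arginine. TR72097|c11_g10 was at 88.9 at 0 h and at 3442, 3643 and 4864 at 12, 24 and 48 h. A urease gene (TR67812|c0_g2), of arginine breakdown, was at 9.91, 10.9, 4.05 and 4.63. No tested gene was named arginase. The list of polyamine conjugation was empty, since no gene of the table carried its names.

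**Figure D5:**
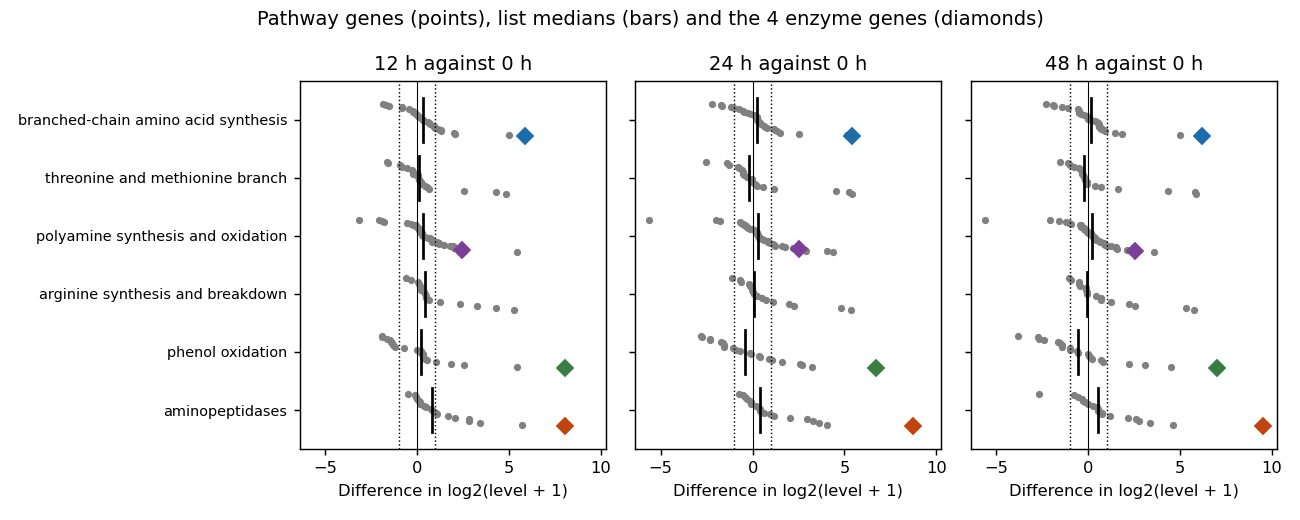
Difference in log2(level + 1) from 0 h at 12, 24 and 48 h for the tested genes of 6 pathway lists (points, sorted within each list), with list medians as black bars, 2-fold as dotted lines and the 4 enzyme genes as coloured diamonds. The list medians lie between -0.56 and 0.80 at all times, while threonine dehydratase, leucine aminopeptidase and polyphenol oxidase lie at 5.40 or more.

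The likeness of 2 courses was measured as the Euclidean distance between log2(level + 1) at the 4 times, each centred on its own mean, over 8550 annotated genes with a mean level of at least 10. It describes 4 means per gene and carries no test. The 4 enzymes were not each other's nearest neighbours. The closest 2 by distance, threonine dehydratase and polyphenol oxidase, lay 1.55 apart, and 85 genes were nearer to threonine dehydratase. Leucine aminopeptidase and polyphenol oxidase lay 2.29 apart, but fewer genes, 23, were nearer to leucine aminopeptidase. Leucine aminopeptidase and arginine decarboxylase lay farthest apart, at 5.51.

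Threonine dehydratase had its nearest courses in a cytochrome P450 71B37 hit (TR15699|c2_g4, distance 0.31), a carotenoid cleavage dioxygenase 1 hit (TR57898|c0_g2, 0.37) and an ectonucleotide pyrophosphatase hit (TR28883|c0_g1, 0.45). The first of these was at 0.091, 84.9, 46.9 and 83.5. Each of them was under a level of 1 at 0 h, where threonine dehydratase was at 33.1. The 1 added to each level shrinks changes from such low levels, so these courses are alike on that scale and not in fold. The same limit holds for STAY-GREEN below, at 0.0873 at 0 h and 190 at 12 h. Distances with another pseudocount were not computed. Leucine aminopeptidase had no neighbour nearer than 1.00, the patatin-like protein 1 hit TR85657|c0_g1 at 3.63, 971, 1873 and 1414, and unlike the listed gene that one was lower at 48 than at 24 h. It was followed by a benzoate carboxyl methyltransferase (TR13462|c1_g1, 1.12) and an isoflavone reductase-like gene (TR13440|c4_g3, 1.17). Polyphenol oxidase was nearest to a glutaminyl-peptide cyclotransferase (TR16370|c6_g3, 0.33), at 23.6, 6151, 3292 and 3148, then to a GDSL esterase (TR31510|c5_g7, 0.51) and to STAY-GREEN (TR74648|c2_g2, 0.59). Arginine decarboxylase had the closest neighbours, an aldo-keto reductase (TR13883|c0_g2, 0.12), a MYC2 transcription factor hit (TR78965|c1_g1, 0.16) and an arogenate dehydratase 6 hit (TR79494|c1_g1, 0.17). The MYC2 hit, named for a factor that carries out jasmonate responses, was at 32.5, 189, 208 and 227.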

How the data were processed

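The deposited table gives, per the file headers, an expression signal for each assembled gene in 4 columns, 1 for each time. All values are multiples of 0.001 divided by 3, so the authors had averaged 3 replicates before they deposited the signal. RSEM 1.2.19, Trimmomatic 0.33, FastQC 0.11.3 and CASAVA are named, without roles, in the submitters' processing notes. Neither the unit (TPM, FPKM or scaled) nor the assembler, the aligner or the reference is given in the labels. Columns sum to between 866243 and 973347. Read depth and the spread between samples are unknown, so neither intervals nor tests were computed; whether replicates were separate plants is not stated beyond the label. 1 line of the table was emptied before use, and 0 of 32064 identifiers matched the reference gene table, so no position or sequence is reported.

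Differences are of log2(level + 1), with a level of at least 1 at some time as filter and 2-fold as rule of size (Python 3.11.15, pandas 2.3.3, numpy 2.4.6); the counting was tested on simulated data. Lists were matched on Swiss-Prot names. The genes named are the 4 enzymes, their namesakes, the 3 nearest courses, and per list the most different genes at each time and that with the highest mean level, all with a level of at least 10; exceptions are marked. Members and lists were chosen with earlier results of these data known. Alternatives were a pseudocount of 0.1, other column scalings, other filters and summed pieces.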

Additional observations from a re-analysis of the deposited data

How the results depend on the processing

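The differences of the 4 enzyme genes from 0 h stayed at or above 2-fold and in the same direction in all 48 recomputed values (a pseudocount of 0.1, columns scaled to one sum, median-of-ratios scaling, and pieces of 1 component and entry summed). Summing pieces added nothing to leucine aminopeptidase and polyphenol oxidase, so it could not change their values. It moved threonine dehydratase at 12 h only from 5.899 to 5.896. TR32416|c5_g1, which has no Swiss-Prot hit, was left out of that sum, though it was at 1544 at 12 h and 117 at 48 h. Its effect on the threonine dehydratase differences between treated times was not computed. With pieces summed, arginine decarboxylase (TR65833|c1_g2) was at 1.95 in place of 2.54 at 48 h against 0 h. Between treated times 46 of 48 kept their side of 2-fold. The exceptions were polyphenol oxidase (TR81983|c2_g2) at 48 h against 12 h, at -1.04 as deposited, -0.98 with columns scaled to one sum and -0.85 with median-of-ratios scaling; those scalings shift every gene of a column alike. Under 2-fold, arginine decarboxylase changed sign: with pieces summed from 0.13 to -0.22 (24 h against 12 h) and from 0.12 to -0.43 (48 h against 12 h), and from -0.01 to 0.04 and 0.13 (48 h against 24 h) with those scalings. With a level of at least 10, which tests fewer genes, the genes higher and lower numbered 2523 and 2811 at 12 h, 2434 and 2404 at 24 h, and 2180 and 2861 at 48 h, against 4413 and 5214, 3932 and 4966, and 3587 and 5774. With that filter the list counts were 2 and 3 lower in branched-chain synthesis at 24 and 48 h, 1 and 0 lower in the threonine and methionine branch at 24 and 48 h, 3 higher in arginine synthesis at each time and 0 lower at 48 h, and, in phenol oxidation, 2, 3 and 2 higher and 4, 4 and 4 lower at 12, 24 and 48 h. With a pseudocount of 0.1, 5 polyamine genes were lower at 24 h and 2 arginine genes at 48 h. The other 92 list counts of 108 stayed within 1.5 times. No paired analysis was possible because the table holds 1 mean per time, and for the same reason no replicate could be left out. An unknown depth limits all levels near 1, and so the folds of leucine aminopeptidase and polyphenol oxidase, whose levels at 0 h were 1.68 and 1.82.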

Other observations

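Enzymes on the far side of isoleucine were looked up after the values of the 4 genes had been seen, and are given as values only. Of 4 genes named isoleucine or valine N-monooxygenase, CYP79 enzymes that turn these amino acids into oximes, each was under a level of 1 at 0 h. TR71674|c0_g2 was at 0.122, 7.78, 48.6 and 70.5 at 0, 12, 24 and 48 h, and TR45511|c1_g2 was listed at 0 and then at 1.56, 27.2 and 32.5, both highest at 48 h. TR74526|c7_g2 was at 0.466, 952, 329 and 190.4, highest at 12 h, and TR67479|c3_g1 was highest at 12 h, at 3.0.

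In the mitochondrial breakdown of branched-chain amino acids, 4, 6 and 4 of 19 tested genes were higher at 12, 24 and 48 h and 1, 0 and 2 lower, with medians of 0.51, 0.76 and 0.52. Over all tested genes 15.0%, 13.4% and 12.2% were higher and 17.7%, 16.9% and 19.6% lower. The alpha subunit of 2-oxoisovalerate dehydrogenase (TR58632|c0_g2), which commits these amino acids to breakdown, was at 4.63, 26.3, 63.2 and 46.4. Methylmalonate-semialdehyde dehydrogenase (TR26564|c0_g1), of valine breakdown, was at 27.4, 129.97, 202 and 139.9, and isovaleryl-CoA dehydrogenase (TR26173|c0_g1), of leucine breakdown, at 11.0, 31.2, 41.4 and 31.8. Those lower were hits to 3-hydroxyisobutyryl-CoA hydrolase, TR50326|c1_g7 at 12 h (35.4 at 0 h and 6.86) and TR49479|c0_g2 at 48 h (4.27 and 0.288), and a 3-hydroxyisobutyrate dehydrogenase-like gene, TR80395|c1_g1, at 48 h (56.2 and 25.3).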
